A study of Mus musculus with 4 samples.

Results

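Interleukins, interleukin receptors and receptors of the tumor necrosis factor (TNF) superfamily were followed through single cells of the brains of 5XFAD mice with and without Abi3. The members were every panel gene whose symbol begins with Il and a digit or with Tnfrsf, without Il6, which gave 42 of 397 genes: 33 interleukin and interleukin receptor genes and 9 TNF receptor genes. The rule reads symbols only, and the group of genes was picked with earlier results of these data known. Single-cell RNA sequencing was done with the BD Rhapsody Mouse Immune Response Panel, a targeted assay that amplifies a fixed list of immune genes, on 1 brain hemisphere per mouse, the right one, from which the cerebellum and the olfactory bulb had been removed. The 4 mice were males aged 9 months, 2 of genotype 5XFAD;Abi3-/- (called Abi3-/-) and 2 of genotype 5XFAD (called Abi3+/+), with 1 library per mouse. All 4 carried the 5XFAD transgenes, which are driven by a neuronal promoter and lead to amyloid plaques, so no mouse without amyloid disease entered the comparison. The Abi3-/- strain was made by targeting the Abi3 locus with a strategy for null alleles, and the mice were heterozygous for a Trem2 variant that comes with the SJL background. Abi3 was not on the panel, so these data hold no check of the deletion. The hemispheres were perfused, dissociated in the cold with Accutase and depleted of myelin, without a sort for any cell type.

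Interleukins are secreted signals of immune cells, and each acts only on cells that carry its receptor chains. The IL-1 family (Il1a, Il1b, Il18, Il33) signals through Myd88 to NF-kB, whereas most other interleukin receptors signal through JAK kinases and STAT factors. For IL-1 itself (Il1a and Il1b), Il1rn is a secreted antagonist and Il1r2 a decoy receptor. In the brain, microglia are the resident macrophages and take up an activated state around amyloid plaques that is marked by Apoe and Cst7, while T cells, B cells, neutrophils and monocyte-derived macrophages are rare there.

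Cells with 40 or more genes with a read were kept up to the study's upper limit on depth (the deepest kept cell had 59271 reads). The study's methods state the lower limit in unique reads, whereas here it was set on genes, so the kept cells may not be those of the study. The shallowest deposited cell had 404 reads, and the limit on genes took out 5674 cells. Both limits left 13820 of 21172 deposited cells, 2321 from Abi3-/- mouse 1, 4499 from Abi3-/- mouse 2, 3796 from Abi3+/+ mouse 1 and 3204 from Abi3+/+ mouse 2. Their median depth ranged from 19647.5 to 24283 reads per cell over the libraries. Classes were gated on 6 markers each, none of them a member: a T cell, B cell, neutrophil or macrophage had reads of 3 or more of its own class's markers and fewer than 3 of those of the other 3 of these classes, and a microglial cell had a Trem2 read and passed no other gate. This gave 13081 microglia, 307 T cells, 53 B cells, 117 neutrophils and 74 macrophages, with 188 cells in no class. Microglial markers did not count against the other classes, and 3 or more of the 6 were read in 15 of 307 T cells, 2 of 53 B cells, 15 of 117 neutrophils and 26 of 74 macrophages. Whether these cells held RNA of microglia was not tested. Calls lost without them are named below for neutrophils and T cells, and calls gained without them are not named. In their own class the 6 T cell markers were read in 59% to 99.7% of cells and the 6 neutrophil markers in 68.4% to 100%. The others were less even. Macrophage markers were read in 40.5% (Cd163) to 79.7% (Ccr2) of macrophages, B cell markers in 34% (Pax5) to 100% of B cells, and of the microglial markers Csf1 was read in 9.36% of microglia. The macrophage markers also included Clec10a (75.7%), Flt3 (62.2%), F13a1 (45.9%) and Kcne3 (41.9%), and whether this class held other myeloid cells was not tested. In microglia T cell and B cell markers were found in at most 0.176% of cells, neutrophil markers in up to 2.75% (S100a8) and macrophage markers in up to 1.64% (Ccr2). Macrophages were the deepest class, with a median of 41528.5 reads against 21368 in microglia, 16897 in T cells, 15287 in B cells and 26931 in neutrophils, and Trem2 was read in 47.3% of them. B cells and neutrophils were thin in 2 libraries, with 4 B cells and 5 neutrophils for Abi3-/- mouse 1 and 3 B cells and 6 neutrophils for Abi3+/+ mouse 1. The pairs of libraries shared 17 to 42 barcode numbers, and no profile behind them was identical. Reads of a cell come from few molecules, so every interval and upper limit below covers counting error only. When reads are summed over a class, fewer cells with a transcript and less transcript per cell cannot be told apart.

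To compare classes at 1 depth, every cell was also thinned to 10000 reads, and shallower cells were left out (437 microglia, 40 T cells, 5 B cells, 11 neutrophils and 4 macrophages). Il1b was then read in 88.3% instead of 89.5% of neutrophils, Il2rb in 86.4% instead of 82.1% of T cells and Il3ra in 41.4% instead of 40.4% of macrophages, as means over mice. The median move was 0.231 percentage points over the members expressed in microglia and 0.621 in macrophages, but 2.06 in T cells, 2.02 in B cells and 2.27 in neutrophils. Single members of the 53 B cells moved further, Tnfrsf18 from 20.5% to 13.1%, Il12a from 40.5% to 30.4% and Tnfrsf13b from 56.9% to 75.4%, and in neutrophils Il15 went from 15.7% to 11.7%.

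A member was called expressed in a class when 5% or more of its cells had a read, as the mean over the 4 mice. By this measure 11 members were expressed in microglia, 15 in T cells, 10 in B cells, 8 in neutrophils and 15 in macrophages. In B cells Il15ra (1 of 53 cells, 1.89%) and Il3ra (2 of 53, 3.77%) were below 5% as pooled shares. Each reached 5% as a mean over mice through 1 cell among the 4 of the Abi3-/- mouse 1. Pooled shares also crossed 5% for Il2ra in T cells (4.89%), which was expressed as a mean over mice. They did so for Il1rn in macrophages (5.41%), Il33 in B cells (5.66%) and Tnfrsf13b in neutrophils (5.13%), which were not. Only Il4ra and Il6ra were expressed in all 5 classes, 14 members in 2 to 4 classes and 9 in a single class. The single-class members were Il1a in microglia, Il1rn in neutrophils, Il12a and Tnfrsf13c in B cells, and Il2rb, Il12rb1, Il18r1, Tnfrsf4 and Tnfrsf25 in T cells. The remaining 17 members were expressed in none of the classes. Il5, Il9, Il13, Il17a and Il22 were read in 0 of 13820 kept cells. Il4, Il10, Il12b, Il17f, Il21 and Il23r were read in 1 to 4 cells each, and the only cell with Il4 held 1 read. Il2, the T cell growth factor, was read in 9 cells, all of them T cells (2.93% of 307). Il25 (21 kept cells), Tnfrsf9 (13), Tnfrsf8 (45), Il33 (196) and Tnfrsf17 (279) also stayed below 5% in each class as means over mice. The signature cytokines of helper T cell subsets on this panel, Il4, Il5, Il9, Il13, Il17a, Il17f, Il21 and Il22, were thus read in at most 4 kept cells each. The 15 members expressed in T cells were all receptors or receptor chains.

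**Figure D1:**
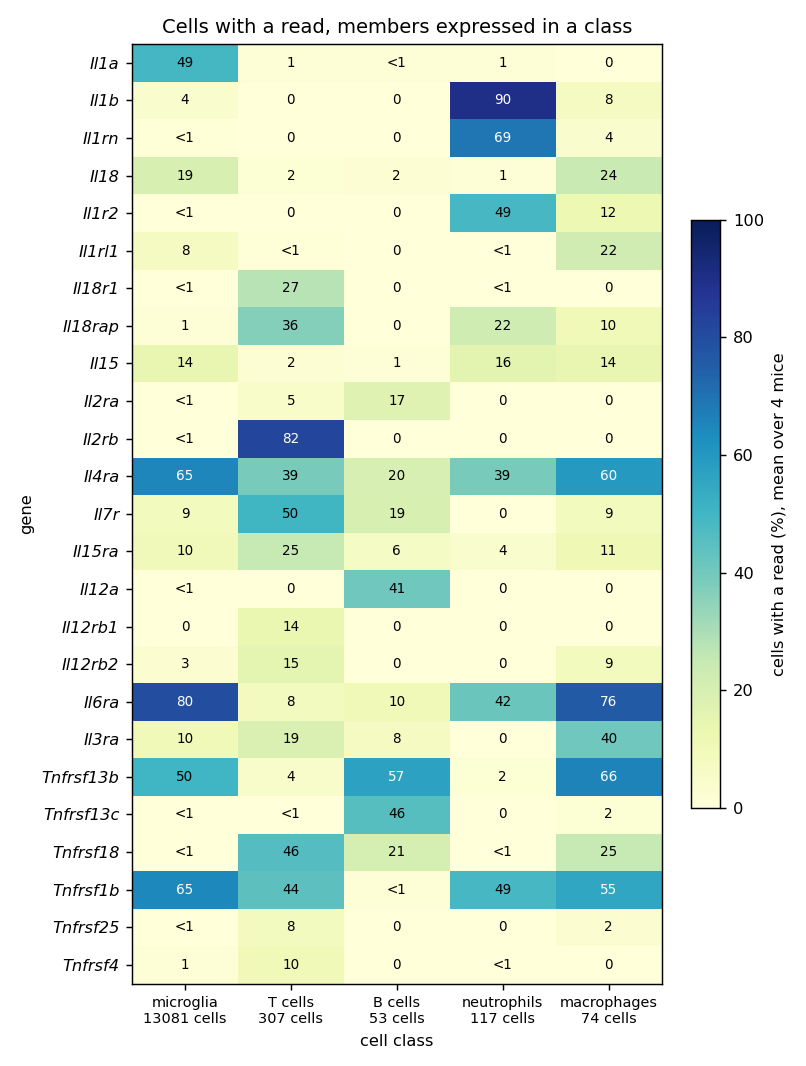
Share of cells with a read (percent, mean over 4 mice) for the 25 members expressed in at least 1 class (rows, by role) in the 5 gated classes (columns, with their cell numbers). The darkest fields are Il1b in neutrophils (89.5%), Il2rb in T cells (82.1%) and Il6ra in microglia (79.6%).

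Il1a was read in a larger share of microglia than of any other class, and Il1b in a larger share of neutrophils. Il1a, the alarmin that is active as made, and Il1b, which is cut to its active form by caspase 1, are neighbouring genes on the minus strand of chromosome 2 (Il1a at chr2:129299609-129310186 and Il1b at chr2:129364569-129371164, GRCm38.p6). Il1rn lies on the plus strand of the same chromosome (chr2:24336860-24351491), and Il1r2 on chromosome 1 (chr1:40084692-40125230). Their RefSeq promoter windows on GRCm38.p6 are shown because these 4 genes were read in different shares of microglia and neutrophils. Each window runs from 250 bases before to 50 after a transcript start, 5′ to 3′ on the gene's strand (chr2:129309923-129310222, chr2:129371090-129371389, chr2:24336610-24336909 and chr1:40085843-40086142). For Il1rn the first of 3 windows in the table is given. Capitals mark the matches, on either strand, to the TATA box (TATAAA). They also mark the site of AP-1, a factor of activated cells (TGANTCA). The last motif marked is that of PU.1, the lineage factor of myeloid cells (GAGGAA).
Il1a: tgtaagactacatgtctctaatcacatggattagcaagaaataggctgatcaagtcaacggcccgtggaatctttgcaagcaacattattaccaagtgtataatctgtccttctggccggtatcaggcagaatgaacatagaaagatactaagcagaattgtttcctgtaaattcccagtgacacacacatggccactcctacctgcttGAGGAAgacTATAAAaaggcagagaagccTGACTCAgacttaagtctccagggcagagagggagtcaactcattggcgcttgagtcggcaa
Il1b: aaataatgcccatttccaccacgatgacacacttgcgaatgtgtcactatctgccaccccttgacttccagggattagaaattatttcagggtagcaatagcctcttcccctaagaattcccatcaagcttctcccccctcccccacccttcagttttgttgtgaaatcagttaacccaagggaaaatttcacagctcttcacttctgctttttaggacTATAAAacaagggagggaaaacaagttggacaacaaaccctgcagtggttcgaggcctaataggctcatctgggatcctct
Il1rn: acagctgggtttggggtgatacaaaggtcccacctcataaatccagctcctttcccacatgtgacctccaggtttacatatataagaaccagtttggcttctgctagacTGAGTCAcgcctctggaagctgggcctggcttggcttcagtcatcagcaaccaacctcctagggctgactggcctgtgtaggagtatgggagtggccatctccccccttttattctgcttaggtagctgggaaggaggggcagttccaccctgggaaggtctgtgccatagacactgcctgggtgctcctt
Il1r2: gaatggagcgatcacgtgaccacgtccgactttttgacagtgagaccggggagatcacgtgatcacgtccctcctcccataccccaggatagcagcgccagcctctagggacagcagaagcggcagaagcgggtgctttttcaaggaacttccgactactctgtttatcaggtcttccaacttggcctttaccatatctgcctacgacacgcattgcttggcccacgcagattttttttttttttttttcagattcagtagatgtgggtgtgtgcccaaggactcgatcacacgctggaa
TATAAA was found 32 bases before the start of Il1a and 31 bases before that of Il1b, and in 13.6% of 32851 promoter windows of the same length. TGANTCA was found in Il1a (12 bases before the start) and Il1rn (141 bases before it) and in 7.81% of all windows. GAGGAA was found in Il1a, 41 bases before the start, and in 28.3% of all windows. The matches did not overlap each other, and the Il1r2 window held none of these letters.

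Il1a was read in 921 of 2186 and 1736 of 4234 microglia of the 2 Abi3-/- mice (42.1% and 41%) and in 2026 of 3660 and 1741 of 3001 of the 2 Abi3+/+ mice (55.4% and 58%). Outside microglia it was read in 4 of 307 T cells, 5 of 117 neutrophils, 1 of 53 B cells and 0 of 74 macrophages, and the last count allows a share of up to 4.05%. Macrophages lacked Il1a reads in each of the 4 mice although they were the deepest class. Il1b was read in 5 of 5 and 65 of 87 neutrophils from Abi3-/- brains and in 5 of 6 and 19 of 19 from Abi3+/+ brains, which is 80.3% of all 117 (95% exact interval 72% to 87.1%). Neutrophils with a read held a median of 408 Il1b reads, against 53 in the microglia with a read. Among microglia the share with Il1b was 3.89% and 6.99% for Abi3-/- and 2.54% and 2.67% for Abi3+/+ brains, and it was 0 of 307 in T cells, a class that should lack it, at a median depth of 16897 reads. Neutrophil and microglial shares did not overlap in any pair of mice, but as microglia were far more numerous, they made up 554 of the 667 kept cells with Il1b and neutrophils 94.

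The library with the highest microglial share of Il1b also held the most neutrophils, 87 cells. There, S100a8 or S100a9, the abundant calprotectin genes of neutrophils, were read in 6.08% of the 296 microglia with Il1b and in 6.17% of the 3938 without it. In the other Abi3-/- mouse they were read in 0 of 85 and 0.381%, in the Abi3+/+ mouse 1 in 0 of 93 and 0.897%, and in the Abi3+/+ mouse 2 in 3.75% and 2.02%. Over all mice the shares were 3.79% with Il1b and 2.73% without. For Il1rn in the Abi3-/- mouse 2 they were 14.6% of 48 microglia with a read and 6.07% of those without. In the other mice they went the other way, at 0 of 19 and 0.369% (Abi3-/- mouse 1), 0 of 9 and 0.876% (Abi3+/+ mouse 1) and 0 of 20 and 2.08% (Abi3+/+ mouse 2). The part of neutrophil RNA in these microglial reads was not tested. The microglia with Il1b were deeper, with a median of 27035 against 21170 reads. Il1a was also read in 59.7% of the 554 microglia with Il1b.

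Il1rn, which blocks the IL-1 receptor, was read in 3 of 5 and 61 of 87 Abi3-/- neutrophils and in 4 of 6 and 15 of 19 Abi3+/+ neutrophils. In microglia its share was 0.734%, and in T and B cells 0. Il1r2, which binds IL-1 without signalling, was read in 3 of 5, 52 of 87, 1 of 6 and 11 of 19 neutrophils in the same order. It was also read in 12.2% of macrophages and in 0.268% of microglia. Of 117 neutrophils, 68 had both Il1b and Il1rn, and 54 both Il1b and Il1r2. Il1rn was read in 72.3% of neutrophils with Il1b and in 65.2% of those without, and Il1r2 in 57.4% and 56.5%.

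**Figure D2:**
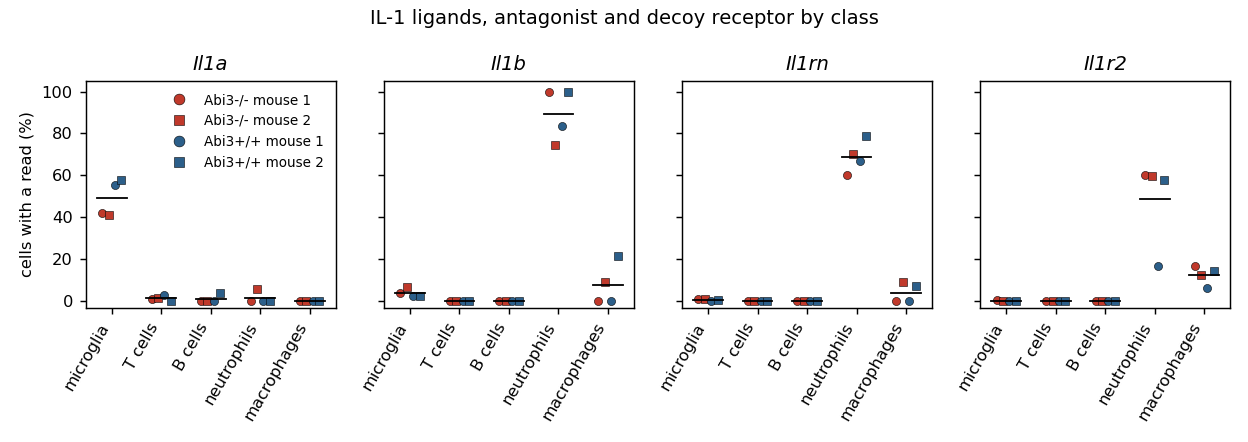
Share of cells with a read (percent) of Il1a, Il1b, Il1rn and Il1r2 in each class, with 1 point per mouse (red Abi3-/-, blue Abi3+/+; circle mouse 1, square mouse 2) and a line at the mean. Il1a stands out in microglia (41% to 58%), the other 3 genes in neutrophils.

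Reads were summed per mouse and class, given as CPM (a gene's reads scaled to 1000000 reads of the class) and compared with microglia in edgeR's quasi-likelihood test with the mouse as a block, adjusted over all 333 genes tested. In neutrophils 9 of 28 members tested passed an adjusted p of 0.05, 4 of them higher and 5 lower, beside 32.4% of all genes (9.91% higher and 22.5% lower). Higher were Il1b (23713 ± 15548 against 160 ± 115 CPM, SD, n = 4 mice; adjusted p = 0.0174), Il1rn (2790 ± 665 against 50.6 ± 14.9; adjusted p = 0.0375), Il1r2 (1655 ± 529 against 6.48 ± 2.17; adjusted p = 0.00281) and Il18rap (562 ± 281 against 28.4 ± 3.06; adjusted p = 0.0108), each in 4 of 4 mice. Lower were Il3ra, Il7r and Il12rb2, each with 0 reads in neutrophils, and Il1rl1 (1.03 ± 2.05 against 183 ± 43.4 CPM) and Tnfrsf13b (37.7 ± 75.4 against 1635 ± 390 CPM). Il12rb2 was read in 326 of 13081 microglia, so 0 of 117 neutrophils do not show a smaller share. With 1 mouse left out 3 to 6 members passed (3 without the Abi3-/- mouse 1, 6 without the Abi3-/- mouse 2, 5 without the Abi3+/+ mouse 1 and 3 without the Abi3+/+ mouse 2). Il1r2, Il3ra and Il7r passed in each of these 4 fits. Il1b passed in none of them, with adjusted p of 0.0505 to 0.0706, and Il1rn in none, with 0.0909 to 0.129. Without the 15 neutrophils, among other cells, that had 3 or more microglial markers, 11 members passed, and Il18rap did not (log2 fold change 3.04; adjusted p = 0.334). DESeq2 called 15 members in this comparison.

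Among the classes Il18 was read mostly in microglia and macrophages and its receptor chains mostly in T cells, with Il18rap also in neutrophils, as shares of cells. Outside the classes Il18 was read in 26.6% of the 188 kept cells in no class and in 16.4% of the cells with under 40 genes. Il18, an inflammasome-dependent cytokine, was read in 19.5%, 17.5%, 21.7% and 18.6% of microglia (Abi3-/- 1 and 2, Abi3+/+ 1 and 2) and in 24.3% of macrophages, but in 1.63% of T cells. Its receptor chains Il18r1, which binds the ligand, and Il18rap, which is needed to signal, were read in 26.7% and 36.2% of T cells and in 0.0153% and 1.15% of microglia. In neutrophils Il18rap was read in 34 of 117 and Il18r1 in 1 of 117, and in macrophages Il18rap was read in 7 of 74. Among T cells 32 of 307 had both chains. Il18r1 was uneven between mice, at 26.3%, 44.1% and 35.3% in 3 of them and at 3.95% (3 of 76 cells) in the Abi3+/+ mouse 2, while Il18rap was at 43.4% in that mouse and at 31.6% to 36.8% in the others. Il1rl1, the receptor of IL-33, was read in 24.3% of macrophages and 7.87% of microglia, and in 0 of 53 B cells and 2 of 307 T cells.

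T cells were the class richest in receptor chains. Il2rb, the signalling chain shared by the IL-2 and IL-15 receptors, was read in 84 of 95 and 51 of 68 Abi3-/- T cells and in 54 of 68 and 65 of 76 Abi3+/+ T cells (82.7% of all), against 3 of 13081 microglia and 0 of 53 B cells. Il7r, the IL-7 receptor that keeps resting T cells alive, was read in 54.7%, 60.3%, 45.6% and 38.2%. Tnfrsf18 (GITR, a costimulatory receptor) was read in 49.5%, 41.2%, 51.5% and 40.8%. The genotypes overlapped for Il2rb and Tnfrsf18. For Il7r the share was higher in both Abi3-/- mice, but its level overlapped, at 3320 and 4202 CPM in Abi3-/- and 3559 and 2980 CPM in Abi3+/+ T cells.

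Il4ra, the chain shared by the IL-4 and IL-13 receptors, was read in 38.7% ± 6.61 of T cells (SD, n = 4 mice), Il3ra in 18.6% ± 6 and Il6ra in 8.03% ± 5.48. In neutrophils Il4ra was read in 38.7% ± 17.8 and Il6ra in 41.8% ± 5.7. In B cells Il4ra was read in 18, Il7r in 13, Il6ra in 5, Il3ra in 2 and Il15ra in 1 of 53.

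Smaller shares of T cells carried the other chains. Il15ra, which presents IL-15, was read in 24.4% of T cells (18 to 20 cells per mouse), Il12rb2 in 15.6% (9 to 19 cells) and Il12rb1 in 13.7% (7 to 14 cells). The latter pair forms the IL-12 receptor, and 9 of 307 T cells had both. Tnfrsf4 (OX40) was read in 5.26% to 16.2% and Tnfrsf25 (death receptor 3) in 2.11% to 10.5%. Il2ra, the high-affinity IL-2 chain, was read in 4.21%, 5.88% and 10.3% of T cells in 3 mice and in 0 of 76 in the Abi3+/+ mouse 2. Of the 307 T cells, 217 had a Cd8a read. Tnfrsf25 was read in 0.922% of these and in 23.3% of the 90 without, Tnfrsf9 (4-1BB) in 0.461% and 8.89%, and Il15ra in 28.6% and 14.4%, at median depths of 18078 and 13714.5 reads. Of the 28 members read in a T cell 9 went in 1 direction in all 4 mice, Il15ra and Il2rb higher with Cd8a and Il6ra, Il7r, Tnfrsf4, Tnfrsf9, Tnfrsf13b, Tnfrsf18 and Tnfrsf25 lower, beside 26.2% of the 320 panel genes read in a T cell (15% higher and 11.2% lower). These differences were not tested.

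Against microglia 16 of 28 members tested passed in T cells, 8 higher and 8 lower, beside 49.2% of all genes (25.5% higher and 23.7% lower). The higher ones were Il2rb (7610 ± 1048 CPM in T cells; adjusted p = 0.00289), Tnfrsf18 (2485 ± 622; adjusted p = 0.00165), Il18r1 (1104 ± 771), Il18rap (1839 ± 706), Il12rb1 (464 ± 169), Il7r (3515 ± 516), Il2ra (247 ± 218) and Tnfrsf9 (316 ± 416). The lower ones were Il1b, Il1rn, Il1r2 and Tnfrsf17, with 0 reads in T cells, and Il6ra (305 ± 205 against 4244 ± 657 CPM), Il18 (34.3 ± 39.6 against 346 ± 62.4), Il1rl1 (13.6 ± 18.4 against 183 ± 43.4) and Tnfrsf13b (197 ± 125 against 1635 ± 390). With the Abi3-/- mouse 1 left out 8 members passed, without the Abi3-/- mouse 2 10, without the Abi3+/+ mouse 1 12 and without the Abi3+/+ mouse 2 9. The calls of Il2rb, Tnfrsf18, Il18r1, Il18rap, Il12rb1, Il1b, Il1rn and Il1r2 held in all 4 of these fits. Il1rn and Il1r2 were read in only 96 and 35 of 13081 microglia, so 0 of 307 T cells do not show a smaller share. Il7r held only without the Abi3+/+ mouse 1, with adjusted p up to 0.181. With fewer than 3 microglial markers required of each cell 14 passed, and Il18rap (adjusted p = 0.0735), Il7r (0.0526) and Il1rl1 (just above the threshold) did not.

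**Figure D3:**
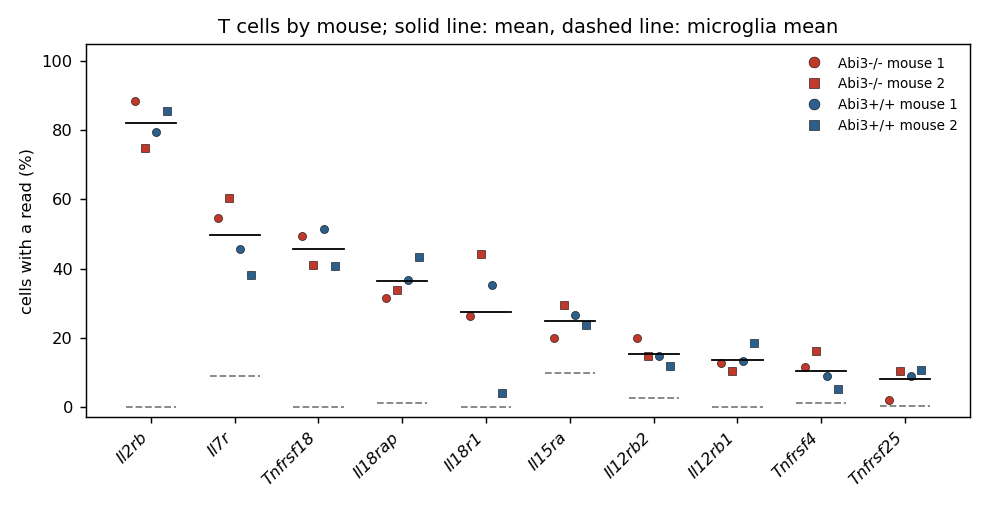
Share of T cells with a read (percent) of 10 receptor members, with 1 point per mouse (red Abi3-/-, blue Abi3+/+; circle mouse 1, square mouse 2), a solid line at the mean and a dashed line at the microglial mean. Il18r1 in the Abi3+/+ mouse 2 (3.95%) lies apart from the other 3 mice (26.3% to 44.1%).

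B cells as a class had reads of 2 receptors of the cytokine BAFF and of an IL-12 subunit. Tnfrsf13c (BAFF receptor, needed for survival of mature B cells) was read in 2 of 4 and 9 of 20 Abi3-/- B cells and in 1 of 3 and 14 of 26 Abi3+/+ B cells, against 4 of 13081 microglia and 1 of 307 T cells. Tnfrsf13b (TACI, which binds BAFF and APRIL) was read in 67.9% of B cells, but it was also read in 63.5% of macrophages and in 6536 of 13081 microglia, but in 4.23% of T cells and 5.13% of neutrophils. Of 53 B cells 15 had both, and Tnfrsf13c was read in 41.7% of B cells with Tnfrsf13b and in 64.7% of those without. Il12a, the p35 subunit of IL-12, was read in 26 kept cells in all, and 22 of them were B cells, 2 of 4 and 5 of 20 for Abi3-/- and 1 of 3 and 14 of 26 for Abi3+/+. The other 4 were microglia. Il12b, the p40 subunit that IL-12 also needs, was read in 0 of 53 B cells, which allows a share of up to 5.66%. Tnfrsf13b was read in 50% of B cells with Il12a and in 80.6% of those without. Il2ra was read in 11 of 53 B cells, and 7 of these also had Il12a. Its shares with and without Il12a were 31.8% and 12.9% over all mice. The mice differed, with 80% and 0% in the Abi3-/- mouse 2 and 14.3% and 33.3% in the Abi3+/+ mouse 2. Tnfrsf17 (BCMA, typical of plasma cells) was read in 0 of 53 B cells and in 2.13% of microglia.

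In B cells 13 of 28 members passed against microglia, 4 higher (Il12a, Il2ra, Tnfrsf13c and Tnfrsf18) and 9 lower (Il1b, Il1rn, Il1r2, Il1rl1, Il6ra, Il12rb2, Il18rap, Tnfrsf1b and Tnfrsf4), beside 39.9% of all genes (14.1% higher and 25.8% lower). Of the lower ones Il1b, Il1rn, Il1r2, Il12rb2, Il18rap and Tnfrsf4 had 0 reads in B cells. In microglia these were read in 35 (Il1r2) to 554 (Il1b) of 13081 cells, so 53 B cells with 0 reads do not show a smaller share. Tnfrsf13c reached 2031 ± 1055 and Il12a 1986 ± 565 CPM (SD, n = 4 mice), against 0.836 ± 0.713 and 0.857 ± 0.681 in microglia (adjusted p = 0.0117 and 0.0118). DESeq2 called 15 members in this comparison, with Il1r2 and Tnfrsf4 not among them. The calls of Tnfrsf18, Tnfrsf1b and Il18rap held with each mouse left out. Without the Abi3-/- mouse 2, which held 20 of the 53 cells, 5 members passed, without the Abi3+/+ mouse 2, which held 26, 8 passed, without the Abi3-/- mouse 1 10 and without the Abi3+/+ mouse 1 12. Tnfrsf13c lost its call without either of the first pair, with adjusted p up to 0.0605, and Il12a without either of the others, with adjusted p up to 0.0541. Tnfrsf1b, the TNF receptor 2, was read in 1 of 53 B cells against 44% of T cells, 28.2% of neutrophils, 62.2% of macrophages and 64.1% of microglia, as pooled shares.

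In macrophages Il6ra was read in 75.9% ± 10.4, Tnfrsf13b in 66% ± 9.41, Il4ra in 59.6% ± 12.9 and Tnfrsf1b in 55.2% ± 21.2 of cells (SD, n = 4 mice), the last in 5 of 12 and 6 of 16 cells of 2 of the mice. Il15 (14.3%), Il15ra (11.2%), Il7r and Il12rb2 (8.56% each) and Il1b (7.7%) were read in fewer. In CPM Il6ra was at 2250 ± 711 in macrophages and 4244 ± 657 in microglia, and Il4ra at 1343 ± 222 and 2790 ± 343, with no overlap between the classes, though neither passed the test below (log2 fold changes -1.21 ± 1.13 and -1.41 ± 1.27; edgeR adjusted p = 0.571 and 0.546). Il3ra, the IL-3 receptor chain, was read in 41.7%, 40.6%, 43.8% and 35.7% of macrophages (Abi3-/- 1 and 2, Abi3+/+ 1 and 2) and in 8.60%, 12.2%, 10.1% and 9.83% of microglia, with no overlap between the classes. Tnfrsf18 was read in 3 of 12, 9 of 32, 4 of 16 and 3 of 14 macrophages and in 8 of 13081 microglia. Il1a was absent from the reads of all 74. Against microglia 4 of 28 members passed, Tnfrsf18 and Il1r2 higher (327 ± 87.2 and 236 ± 165 CPM; adjusted p = 0.00507 and 0.0217) and Il1a and Tnfrsf4 lower, beside 12.9% of all genes (8.71% higher and 4.2% lower). Tnfrsf4 was read in only 155 of 13081 microglia, so 0 of 74 macrophages do not show a smaller share. Il3ra did not pass (log2 fold change 1.19 ± 1.36; adjusted p = 0.643). Without the Abi3-/- mouse 1 or the Abi3-/- mouse 2 0 members passed, and without either Abi3+/+ mouse 1. DESeq2 called 7. Tnfrsf18 lost its call without either Abi3-/- mouse (adjusted p up to 0.0634). Il1a (adjusted p of 0.0673 to 0.115), Tnfrsf4 (0.0865 to 0.110) and Il1r2 (0.0605 to 0.120) lost theirs in each of these 4 fits, and with macrophages gated on 4 markers the log2 fold change of Il1r2 turned from 4.86 to -1.49 (adjusted p = 0.604). T cell markers were each read in at most 1.35% of macrophages, a share that the gate itself holds down, and microglial C1qa in 27%. Their part in these values was not tested. In the 48 macrophages with fewer than 3 microglial markers Tnfrsf18 was read in 17, Il3ra in 21 and Il1a in 0, and 4 members passed.

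In microglia the 11 expressed members were mostly receptors. Il6ra (79.6% ± 3.99 of cells, SD, n = 4 mice), Il4ra (65.1% ± 4.92) and Tnfrsf1b (64.6% ± 4.38) were read in most microglia, followed by Tnfrsf13b (50% ± 4.49) and Il1a (49.1% ± 8.81). Il18 (19.3% ± 1.80), Il15 (14.3% ± 1.04), Il3ra (10.2% ± 1.5), Il15ra (9.89% ± 2.31), Il7r (8.91% ± 1.71) and Il1rl1 (7.57% ± 1.87) were read in a minority. Il4ra and Tnfrsf1b, Tnfrsf13b and Il1a, and each neighbouring pair among the last 4 differed by less than the spread between mice, while Il3ra was above Il1rl1 in each of the 4 mice. These are shares of cells with a read, not RNA levels, since each gene was amplified with its own primers. Thinned to 10000 reads per cell the shares of these 11 members moved little, from 79.6% to 80.3% for Il6ra and from 49.1% to 49.7% for Il1a. Il15, the ligand, and Il15ra, which presents it, were both read in 196 microglia, and Il15ra was read in 10.4% of microglia with Il15 and in 9.83% of those without.

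Microglia were then split by reads of Apoe and Cst7 alone, which gave 3364 Apoe+ Cst7+, 2790 Apoe+ Cst7-, 1131 Apoe- Cst7+ and 5796 Apoe- Cst7- cells. Apoe+ Cst7+ cells were deeper, with a median of 29615 against 18731.5 reads in Apoe- Cst7- cells. Between these ends of the split 11 of 25 members tested passed, 3 higher and 8 lower in Apoe+ Cst7+ microglia, beside 47.1% of 297 genes (24.2% higher and 22.9% lower). The median log2 fold change was -0.34 over the members and -0.04 over all genes tested.

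Il3ra had the largest rise among the members that passed. Its level was 366, 589, 1035 and 981 CPM in Apoe+ Cst7+ microglia (Abi3-/- 1 and 2, Abi3+/+ 1 and 2) and 186, 202, 165 and 144 in Apoe- Cst7- microglia, without overlap. The log2 fold change was 2.54 ± 0.337 (SE; adjusted p = 6.03e-05), with 4 of 4 mice higher. The share of cells with a read went from 4.47% ± 0.572 to 25.4% ± 7.54, and to 4.61% and 25.6% at 10000 reads per cell. Apoe+ Cst7- and Apoe- Cst7+ microglia lay in between, at 6.54% and 8.06%. Il1b rose as well, from 85.7, 147, 62.8 and 75.1 CPM to 116, 528, 106 and 188 CPM, and its share of cells from 2.69% to 6.53% (log2 fold change 1.69 ± 0.384; adjusted p = 0.00300). It was higher in 4 of 4 mice, though the levels of the groups overlapped. Il12rb2, at 40.4 ± 19 and 68.2 ± 24.3 CPM in Apoe- Cst7- and Apoe+ Cst7+ microglia, passed (log2 fold change 1.44 ± 0.480; adjusted p = 0.0272) with 3 of 4 mice higher in CPM. It no longer passed without the Abi3-/- mouse 2 or without the Abi3+/+ mouse 1, with adjusted p up to 0.209. Il33 had a larger log2 fold change, 3.10 ± 1.37, and did not pass (adjusted p = 0.0841). Its level was 0, 12.7, 12.7 and 13.3 CPM in Apoe- Cst7- and 19.4, 54.4, 46.6 and 59.7 CPM in Apoe+ Cst7+ microglia, without overlap, from 24 of 5796 and 72 of 3364 cells.

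Among the members that passed Il7r fell furthest. It went from 257, 416, 370 and 417 CPM in Apoe- Cst7- microglia to 63.5, 48.4, 42.1 and 35.8 in Apoe+ Cst7+ microglia, again without overlap, and from 12.5% to 2.65% of cells. The log2 fold change was -2.38 ± 0.247 (adjusted p = 1.23e-05). Il1a fell by 0.79 on the log2 scale (SE 0.110; adjusted p = 9.24e-05) and from 55.3% to 35.9% of cells, and Il6ra by 0.87 (SE 0.0922; adjusted p = 1.38e-05) and from 86.5% to 62.7%. Tnfrsf1b fell by 0.76, Tnfrsf13b by 0.70 and Il4ra by 0.35, with 4 of 4 mice lower in each. Il15 and Il18 passed barely, with log2 fold changes of -0.34 and -0.32 (adjusted p = 0.0474 and 0.0450), and passed in none of the 4 fits that left out a mouse nor in DESeq2. The calls of Il3ra, Il1b, Il7r, Il1a, Il6ra, Tnfrsf1b, Tnfrsf13b and Il4ra held in all 4 such fits. The scaling matters for the small changes. TMM factors were used, and with the library size alone the median of all genes shifted by -0.56, the calls over all genes went from 72 higher and 68 lower to 44 and 125, and those of the members to 2 higher and 9 lower. Il12rb2 then lost its call (0.85; adjusted p = 0.134), while Il3ra (1.96) and Il1b (1.11) kept theirs.

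Cells with a read of Apoe or Cst7 alone were compared with Apoe- Cst7- cells in the same fit. In Apoe+ Cst7- microglia 0 of 25 members passed in edgeR (7 at an unadjusted p under 0.05, and 2 in DESeq2), beside 5.72% of all genes. In Apoe- Cst7+ microglia 1 of 25 passed, Il6ra, with a log2 fold change of -0.33 ± 0.0914 (adjusted p = 0.0494; 7 members in DESeq2), beside 7.74% of all genes. It did not pass without the Abi3-/- mouse 2 or without the Abi3+/+ mouse 1, with adjusted p up to 0.249. The groups were not tested against each other.

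**Figure D4:**
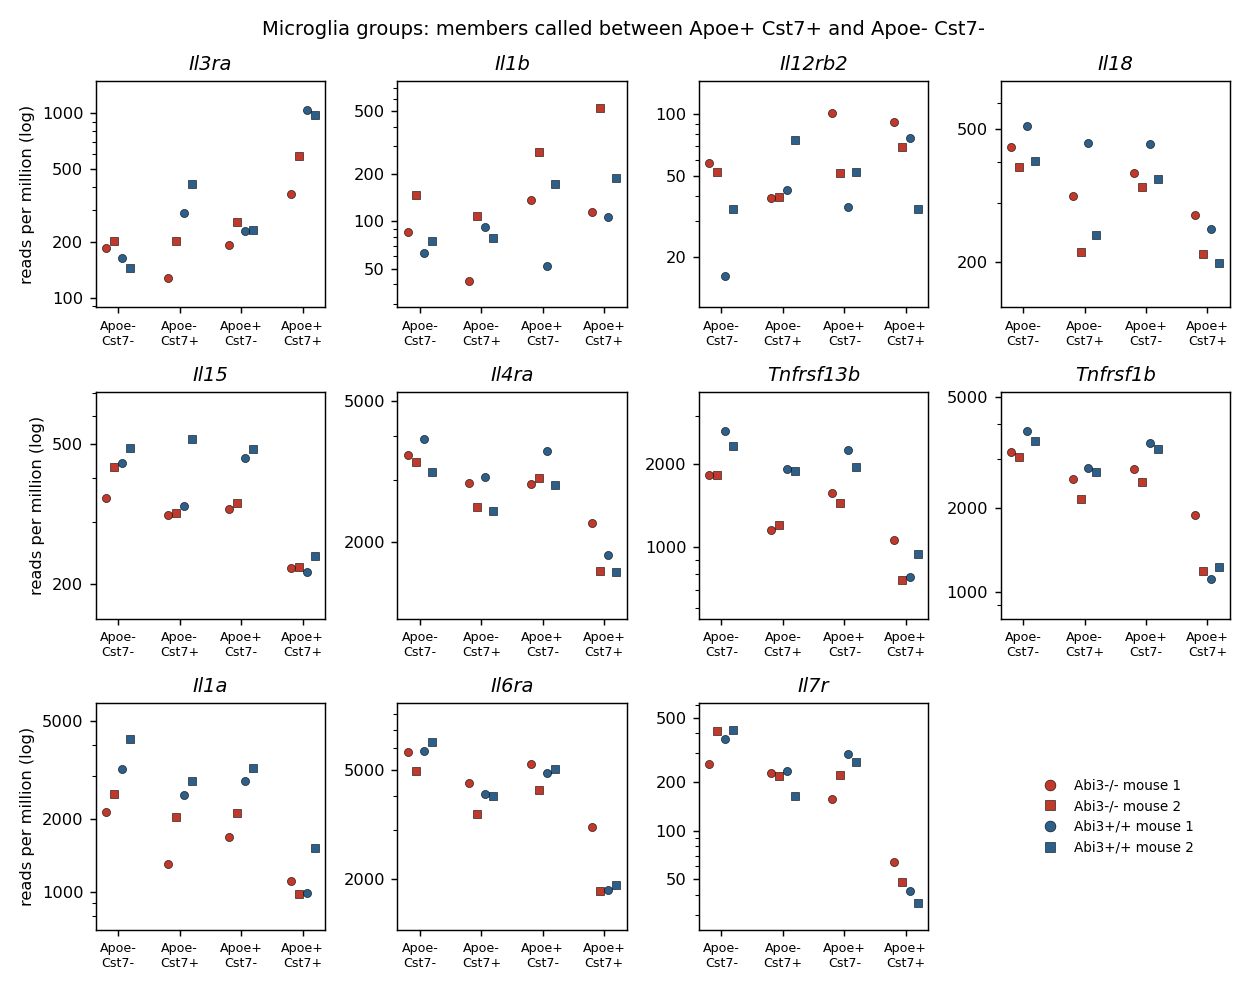
CPM (log axis) in the 4 microglia groups split by Apoe and Cst7 reads, for the 11 members called between the outer groups, with 1 point per mouse (red Abi3-/-, blue Abi3+/+; circle mouse 1, square mouse 2). Il3ra and Il7r move in opposite directions in the Apoe+ Cst7+ group.

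The last question was whether loss of Abi3 changed the members. An exact 2-sided permutation test of 2 against 2 mice has p = 0.333 as its smallest value, so edgeR was used over all genes. In microglia 0 of 28 members tested passed, as did 0% of 329 genes, and DESeq2 called 0 members. With 2 mice per genotype this does not show that the members were alike. At an unadjusted p under 0.05 were 3 members: Il12rb2 (log2 fold change 1.08 ± 0.308), Il1a (-0.63 ± 0.193) and Il15ra (-0.74 ± 0.233), each with an edgeR adjusted p of 0.644. Il12rb2 was read in 4.12% and 3% of Abi3-/- microglia and in 1.58% and 1.70% of Abi3+/+ microglia. Il15ra was read in 7.82% and 8.50% against 10.2% and 13%, and the shares of Il1a, given above, were lower in both Abi3-/- mice. In CPM, before TMM scaling, 15 members separated the genotypes, 1 higher (Il12rb2) and 14 lower in Abi3-/- microglia, beside 43.8% of the 329 genes (10% higher and 33.7% lower). Among the 14 were Il2rb, Il25 and Tnfrsf8, read in only 3, 9 and 39 of 13081 microglia. With TMM scaling the median log2 fold change was -0.19 over the members and 0.01 over all genes. With the library size alone the median over all genes was -0.18.

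Apoe+ Cst7+ cells made up 33.2% and 33.4% of Abi3-/- microglia and 17.6% and 19.4% of Abi3+/+ microglia, and the part of this share in the values over all microglia was not tested. Within Apoe- Cst7- microglia Il1a was read in 48.1% and 46.1% (Abi3-/-) and in 61.3% and 65.5% (Abi3+/+) of cells (log2 fold change -0.62 ± 0.174; edgeR adjusted p = 0.389). Within Apoe+ Cst7+ microglia it was read in 38.9% and 31.7% against 35.1% and 37.9%, where the genotypes overlapped (-0.29 ± 0.241; adjusted p = 0.914). Il3ra was read in 15.2% and 24.7% of Abi3-/- and in 32.6% and 29.1% of Abi3+/+ Apoe+ Cst7+ microglia (-1.10 ± 0.356; edgeR adjusted p = 0.850), but in 4.34% and 5.25% against 4.44% and 3.87% of Apoe- Cst7- microglia (0.39 ± 0.266; adjusted p = 0.695), where its levels in CPM, given above, were higher in both Abi3-/- mice.

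In Apoe+ Cst7+ microglia 0 of 21 members tested passed (2 at an unadjusted p under 0.05, and 0 in DESeq2) and 0% of 276 genes. In Apoe- Cst7- microglia 0 of 23 passed (1 at an unadjusted p under 0.05, and 0 in DESeq2) and 0% of 288 genes. A test of whether the step from Apoe- Cst7- to Apoe+ Cst7+ differed between genotypes was added after the data had been seen. In it 0 of 25 members passed, beside 1.01% of 297 genes, and 4 had an unadjusted p under 0.05, Il3ra with the lowest (difference of log2 fold changes -1.56 ± 0.340; edgeR adjusted p = 0.0755). For Il1a the difference was 0.35 ± 0.206 (edgeR adjusted p = 0.464).

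In T cells 0 of 23 members tested passed between genotypes (1 at an unadjusted p under 0.05, Tnfrsf8, read in 3 T cells, and 0 in DESeq2), beside 0% of 286 genes. Il2rb differed by a log2 fold change of 0.03 ± 0.239, and Il7r by 0.12 ± 0.234. Genotype was not tested in B cells, neutrophils and macrophages, whose smallest libraries held 3, 5 and 12 cells.

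**Figure D5:**
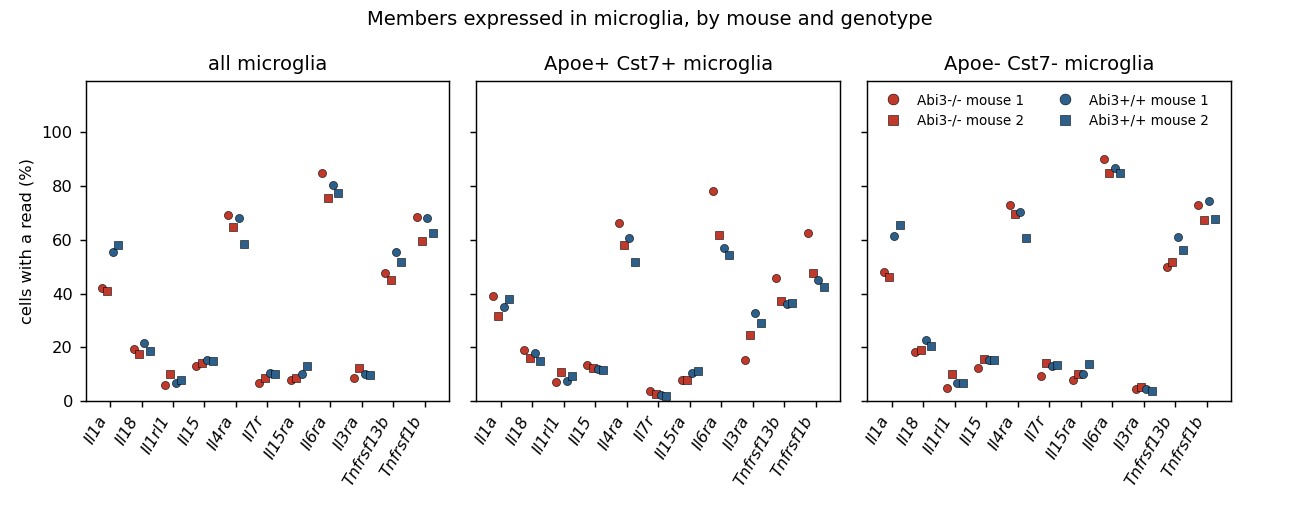
Share of cells with a read (percent) of the 11 members expressed in microglia, in all microglia, Apoe+ Cst7+ microglia and Apoe- Cst7- microglia, with 1 point per mouse (red Abi3-/-, blue Abi3+/+; circle mouse 1, square mouse 2). Il1a separates the genotypes in all microglia and in the Apoe- Cst7- group and not in the Apoe+ Cst7+ group.

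Other genes of these pathways were followed in 3 lists of 8 panel genes each. In Apoe+ Cst7+ against Apoe- Cst7- microglia 3 of 8 genes of inflammasome and Toll/IL-1 signalling passed, all 3 lower, beside 47.1% of all genes (24.2% higher and 22.9% lower): the adaptor Myd88 (-0.68 ± 0.0944), the inflammasome sensor Nlrp3 (-0.54 ± 0.105) and Nfkb1 (-0.27 ± 0.0998). Of the 8 JAK-STAT genes 3 were lower, Stat5a (-0.53 ± 0.181), Tyk2 (-0.36 ± 0.0995) and Stat3 (-0.29 ± 0.0764), and 0 higher. Of the 8 TNF ligands Tnfsf8 (1.49, adjusted p = 0.00371) and Tnfsf13 (0.64 ± 0.209) were higher, and Tnf (-0.87 ± 0.172) and Tnfsf14 lower. Tnfsf13 encodes APRIL, a ligand of Tnfrsf13b and Tnfrsf17. Its level before TMM scaling was 273 ± 14 CPM in Apoe- Cst7- and 295 ± 70.5 CPM in Apoe+ Cst7+ microglia. These levels differed by less than the spread between mice, and the rise called is that of TMM-scaled values. T cells had more Stat4, the factor that acts behind the IL-12 receptor (2536 ± 486 against 2.29 CPM in microglia; adjusted p = 0.00301), and more Lta, Ltb and Tnfsf14, with less Nlrp3 and Tnfsf13. These are 1 of 8 inflammasome and Toll/IL-1 genes, 1 of 7 JAK-STAT genes tested and 4 of 8 TNF ligands, beside 49.2% of all genes. Between genotypes 0 of the genes tested passed in any of the 3 lists, in microglia, in either microglia group or in T cells.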

How the data were processed

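Brain cells of 4 mice were measured with a targeted immune panel, 1 library per mouse. The authors ran the BD Rhapsody Targeted Analysis Pipeline at default settings and deposited tables of whole-number read counts, cells by genes, adjusted with distribution-based error correction. These are reads, not molecules, and low values were rare: for the 21 members found in 100 or more cells, the fewest reads in a cell with a read were 8 to 23, depending on member and library. Rarer members went lower, Il2 to 6 reads and Il4 to 1. GEO's processing notes name mm10, and the pipeline version is not given in the sources used here.

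The members and gene lists were chosen with earlier results of these data known. Cells with 40 or more genes and no more than 59271 reads were kept (the lower limit of the study is given in unique reads), and no doublet caller was run. A cell that passed the gates of 2 of the T cell, B cell, neutrophil and macrophage classes would have been left out, and there were 0. Microglial markers were not counted in these gates, although the rule as first written named every other class, and a gate that counts them was added after the data had been seen. Summed counts were tested in edgeR 4.0.16 (filterByExpr, TMM, glmQLFit) in R 4.3.3, without a block between genotypes and with the mouse as a block within mice, with Benjamini-Hochberg adjustment over all genes tested and a threshold of 0.05. The mouse was the replicate. Alternatives were DESeq2 1.42.0, library size alone, no low-count filter, 10000 reads per cell, all deposited cells, gates at 2 and 4 markers and each mouse left out. The tests were run on simulated data with known changes. At the spread between mice seen here they missed most of these changes, so a member without a call is not shown to be unchanged. Members with a read in at least 5% of a class, or past the threshold, were named. The RefSeq tables (GRCm38.p6) held positions for 42 and promoters for 37 members.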

Additional observations from a re-analysis of the deposited data

Results flagged for a closer look

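Il33 and Il25 were read mainly, and Il3ra in part, in cells that entered no comparison. Il33, an alarmin of the IL-1 family stored in nuclei, was read in 22.1% of the 5674 deposited cells with under 40 genes (165 of 870 and 287 of 1502 cells in the Abi3-/- mice, 25.6% and 22.6% in the Abi3+/+ mice), against 1.23% of the 13632 kept cells in a class, although the median depth was 2399.5 against 21281.5 reads. Among the 188 kept cells in no class, at a median of 13378.5 reads, Il33 was read in 15.4% (5.26% and 13.8% in the Abi3-/- mice, 27.9% and 11.8% in the Abi3+/+ mice). Il25 was read in 1.69% of the cells with under 40 genes, 96 cells, against 0.0660% of the kept cells in a class. Il3ra was read in 57.6% of the 1678 cells above the depth limit (46.3% and 54.1% in the Abi3-/- mice, 64.4% and 59% in the Abi3+/+ mice), against 10.7% of the kept cells in a class, at median depths of 87194 and 21281.5 reads. Of the 2518 deposited cells with Il3ra, 1471 were kept.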

How the results depend on the processing

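The number of members expressed in each class stayed within 1.5 times under every alternative tried, and no genotype test called a member under any of them, the fit with replicate number as a replicate block (0 members in microglia, in both microglia groups and in T cells) included. Samples with the same number deviated together only weakly (r = 0.17 across 324 genes, 2 pairs), and the labels give the number no meaning, so the replicate block is no pairing by design. Of 555 member fold changes recomputed, 461 kept direction and call, 93 lost the call and 1 reversed, Il1r2 in macrophages, at -1.49 with the gate at 4 markers. This tally covers only part of the calls given above. It also holds fold changes between genotypes, which had no call to lose, such as the 6 with the replicate block. It therefore understates the calls lost, and the calls that held with each mouse left out are given with each comparison. The cause of the changes was not tested. Where a genotype was left with 1 mouse, that mouse was assumed to vary like the others.

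Counts of called members moved as follows. For neutrophils against microglia they were 15 with DESeq2 and 5 over sums of 10 or more cells, an alternative chosen after seeing the data. For macrophages against microglia they were 7 with DESeq2 and 2 with the gate at 2 markers. In Apoe+ Cst7- microglia they were 2 with DESeq2, with all deposited cells and with the gate at 4 markers. In Apoe- Cst7+ microglia they were 7 with DESeq2 and with the gate at 4 markers, 6 with all deposited cells, 5 with library size alone, 3 with the gate at 2 markers, 2 at 10000 reads per cell and 0 without the low-count filter. With a mouse left out the counts were 8 to 12 for T cells, 5 to 12 for B cells, 3 to 6 for neutrophils, 0 to 1 for macrophages, 8 to 9 for Apoe+ Cst7+, 0 to 1 for Apoe+ Cst7- and 0 to 3 for Apoe- Cst7+ microglia. Library size alone shifted the median of all genes by 0.27 for T cells, 0.52 for B cells, -0.19 for neutrophils, 0.27 for macrophages and -0.19 between genotypes in microglia.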
